A study of Mus musculus with 18 samples.

Results

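The genes of oxidative phosphorylation were followed in 18 mouse tumours, 3 in each of 6 groups. They were the protein-coding genes whose symbols begin with Nduf, Sdha, Sdhb, Sdhc, Sdhd, Uqcr, Atp5, or Cox followed by 4 to 8, with a mean level over all tumours of at least 0.5 FPKM (fragment counts scaled for transcript length and for library size). Of 102 genes with such symbols, 98 passed this limit, among 12587 genes of any kind that passed it and 26538 in the deposited table. The tumours themselves had received no ablation: another tumour of the mouse had been treated, and the untreated side tumour was resected and its RNA sequenced. The 6 groups were cryo-thermal therapy (freezing joined to heating) with anti-PD-1, cryo-thermal therapy alone, radiofrequency ablation (heating) with anti-PD-1, radiofrequency ablation alone, cryoablation (freezing) with anti-PD-1, and cryoablation alone. Anti-PD-1 is an antibody that blocks PD-1, an inhibitory receptor of T cells. All 6 groups share the ablation of a tumour elsewhere in the animal; tumours of mice with no ablation were not analysed here. Neither the tumour line nor the mouse strain, dose and day of resection were given. Whether each tumour was from its own mouse was likewise not stated, so p-values measure the spread between these tumours, which may in part be technical.

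Oxidative phosphorylation takes place in the inner mitochondrial membrane. Complexes I and II pass electrons from NADH and succinate to ubiquinone, complex III passes them to cytochrome c, and complex IV passes them to oxygen; the proton gradient built by complexes I, III and IV drives complex V, the ATP synthase. Most subunits are encoded in the nucleus, which is where all the genes counted here lie, and a core set is encoded by mitochondrial DNA. NRF1 and the ETS factor GABPA are known for binding the promoters of many nuclear subunit genes, and several subunits of complex IV have isoforms restricted to muscle or to other tissues.

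By complex, the 98 genes were 43 of complex I, 4 of complex II, 8 of complex III, 14 of complex IV and 17 of complex V, with 8 assembly factors of complex I (Ndufaf) and 4 of complex II (Sdhaf) that the symbols also take in. Assembly factors help to build a complex and are not part of it. Complexes were assigned by symbol, which counts Ndufa4 and Ndufa4l2 with complex I and Cox7a2l with complex IV. Ndufb4b, Ndufb4c, Ndufs6b and Ndufab1-ps are close copies of other members, listed as protein coding in the table, and their levels are uncertain where reads could be shared. Just under the limit stood Cox8b with a mean of 0.294 FPKM, Cox6b2 with 0.257, Ndufb11b with 0.0183 and Cox7b2 with 0.00805. Just above it stood Cox4i2 with 0.761 FPKM, Ndufaf6 with 1.20, Ndufb4c with 1.75 and Cox7a1 with 2.07.

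Promoter sequences from RefSeq (build GRCm38.p6) were found by NCBI gene number for 79 of the 98 genes; the build behind the FPKM values was not stated. The window of 250 bases before to 50 bases after the start was searched on both strands for 4 motifs. The NRF1 core GCGCATGC, which overlaps its own reverse complement, was in the promoters of 12 of 79 genes (15.2%), against 3.05% of all 27025 genes in the table. The ETS motif CCGGAAGT was in 5 (6.33%), against 4.31% of all genes. The E-box CACGTG was in 6 (7.59%), against 8.09%, and the MEF2 core CTATTTATA, a motif of muscle genes, was in 0 of 79, against 0.492%. Either of the first 2 motifs was in 16 (20.3%), against 7.06% of all genes. The background took all genes with a promoter sequence, whether or not they passed the FPKM limit, so level and membership are not told apart. These are letter matches and not evidence of binding. The 4 promoters shown are those of Ndufaf4, the one gene with an NRF1 core among those that passed a test below, and of the most abundant members of complexes I, II and III. Those of the most abundant members of complexes IV and V are not shown. All 4 hold a motif, unlike most of the 79 genes, so they do not stand for the module. Each line gives the 150 bases before the start, 5′ to 3′ on the strand of the gene, with the matched motif in capitals (the ETS motif in Uqcrh, the NRF1 core in the others). Ndufaf4 lies at chr4:24897933-24898082 on the plus strand, Ndufa6 at chr15:82354292-82354441 on the minus strand, Sdhb at chr4:140961121-140961270 on the plus strand and Uqcrh at chr4:116075071-116075220 on the minus strand.
Ndufaf4: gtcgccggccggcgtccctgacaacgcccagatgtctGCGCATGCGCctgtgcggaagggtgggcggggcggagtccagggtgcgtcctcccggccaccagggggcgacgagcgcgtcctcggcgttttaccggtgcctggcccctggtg
Ndufa6: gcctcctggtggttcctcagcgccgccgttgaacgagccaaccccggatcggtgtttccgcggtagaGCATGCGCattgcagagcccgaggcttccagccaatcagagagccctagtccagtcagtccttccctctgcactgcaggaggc
Sdhb: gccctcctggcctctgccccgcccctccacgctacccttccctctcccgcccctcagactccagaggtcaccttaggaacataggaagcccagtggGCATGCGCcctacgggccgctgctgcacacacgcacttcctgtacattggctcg
Uqcrh: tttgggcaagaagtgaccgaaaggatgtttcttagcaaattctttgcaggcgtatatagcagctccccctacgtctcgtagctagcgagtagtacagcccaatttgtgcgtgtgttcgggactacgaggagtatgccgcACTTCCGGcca

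The data hold no fragment counts, but low values fell on whole multiples of a step in each tumour. This put the relative depth of the tumours between 0.983 and 1.02, in a search limited in advance to values near a reference tumour. A larger difference in depth could not have been found by it. Log2 profiles of tumours in the same group correlated with r of 0.972 to 0.995, and those of tumours in different groups with r of 0.955 to 0.993. Epithelial tumour markers (Epcam, Krt8, Krt18, Krt19 and Cdh1) summed to between 2.52 and 7.74 FPKM per tumour and 5 melanocyte markers to between 0.749 and 1.60, so neither list identified the tumour cells. Keratinocyte and hair follicle markers, 10 genes, were highest in 3 tumours, replicate 1 of cryo-thermal therapy plus anti-PD-1 and the first pair of cryoablation plus anti-PD-1 (replicates 1 and 2). The epidermal keratin Krt14 had the highest median of this list, 72.9 FPKM (27.5 to 244), while the hair follicle keratins Krt25, Krt27 and Krt71 had medians of 0.013, 0.017 and 0.066 FPKM and highest values of 9.25, 5.68 and 10.3. Tests used limma on log2(FPKM + 1) over all 12587 genes with adjustment by Benjamini and Hochberg, and a gene passed at an adjusted p under 0.05; SD is over 3 tumours and SE is limma's error of a log2 fold change. An exact permutation test of 3 tumours against 3 cannot give a p below 0.1, so single genes were tested only in the fit over all genes.

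The module was abundant. The median member had a mean of 64.8 FPKM, against 8.68 FPKM for all genes past the limit, and the 98 genes together took between 1.83% and 2.16% of all FPKM in a tumour. Complex V held the most abundant member, Atp5b, the catalytic beta subunit of ATP synthase, with 403 FPKM, and complex IV held Cox4i1, the common form of subunit IV, with 330. In complex III the hinge protein Uqcrh averaged 195 FPKM, in complex I the accessory subunit Ndufa6 averaged 183, and in complex II the iron-sulfur subunit Sdhb averaged 103. Assembly factors were scarcer, with mean levels between 1.20 FPKM in Ndufaf6 and 22.7 FPKM in Ndufaf8. These levels are per length and can be set beside each other, but the gene lengths behind them were not stated.

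The catalytic and defining subunits differed little between groups. Atp5b averaged 417 ± 13.7 FPKM with cryo-thermal therapy plus anti-PD-1, 412 ± 25.0 with cryo-thermal therapy, 406 ± 20.8 with radiofrequency plus anti-PD-1, 369 ± 16.7 with radiofrequency, 431 ± 37.5 with cryoablation plus anti-PD-1 and 382 ± 19.5 with cryoablation (SD, n = 3 each). Its 3 highest tumours, at 464, 439 and 439 FPKM, came from 2 groups, cryoablation plus anti-PD-1 and cryo-thermal therapy. Sdha, the flavoprotein that oxidises succinate, was the steadiest member of all, between 56.4 and 65.4 FPKM in the 18 tumours, a ratio of 1.16. Ndufs1, the largest iron-sulfur subunit of complex I, had group means between 23.2 and 24.7 FPKM, and Ndufv1, which binds NADH, had group means between 63.7 and 70.4. Uqcrfs1, the Rieske protein of complex III, had group means between 43.4 and 48.8 FPKM. Uqcrc1, a core protein of complex III, had 66.9 to 74.0 FPKM with radiofrequency and 70.9 to 94.2 in the other groups. Sdhb, which carries electrons on from Sdha, ranged from 83.6 to 121 FPKM over all tumours. None of these 7 genes passed in any of the 12 comparisons made. Across the 98 genes the highest tumour exceeded the lowest by less than 1.5-fold in 58, by 1.5-fold to 2-fold in 29, and by more in 11, from 1.16-fold in Sdha to 10.7-fold in Cox6a2. The spread lay close to that of other genes: among genes with a mean of at least 20 FPKM, the median SD over 18 tumours on the log2 scale was 0.136 for the 77 members and 0.134 for all 3438.

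**Figure D1:**
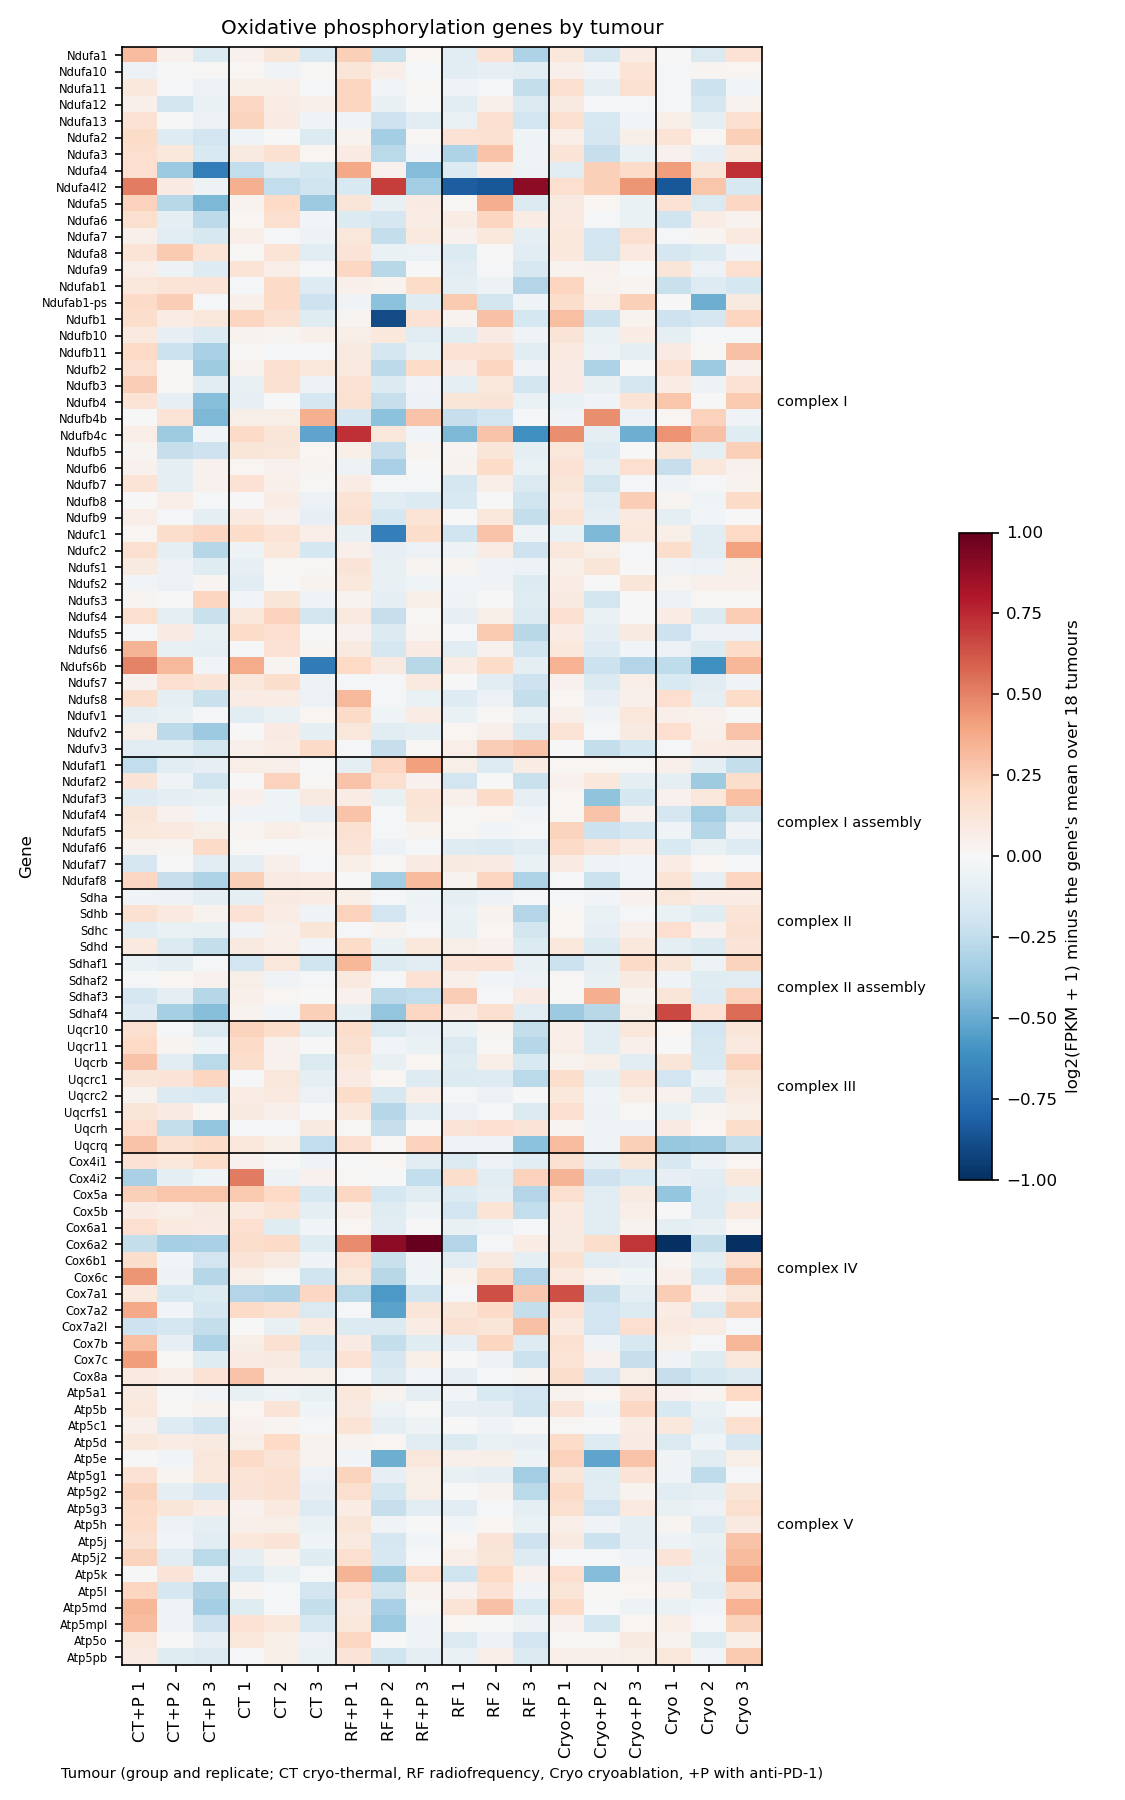
Level of each of the 98 genes (rows, by complex) in each of the 18 tumours (columns, by group and replicate), as log2(FPKM + 1) minus the gene's mean over all tumours. Whole columns are shaded red, such as cryoablation plus anti-PD-1 replicate 1 with 88 genes above their mean, or blue, such as radiofrequency replicate 3 with 12, and Cox6a2 stands out as a row.

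What variation there was lay mainly between tumours of a group, with a median SD of 0.135 within groups and 0.142 over all tumours on the log2 scale, and was shared by many members. For all genes tested these medians were 0.125 and 0.148. In cryoablation plus anti-PD-1 replicate 1, 88 of 98 genes (89.8%) were above their own mean over the 18 tumours, while 46.4% of all genes tested were. In replicate 2 of that same group 23 (23.5%) were, and in replicate 3 62 (63.3%). Radiofrequency plus anti-PD-1 had 80 genes (81.6%) above their mean in replicate 1, 19 (19.4%) in replicate 2 and 49 in replicate 3. The same spread was seen with cryo-thermal therapy plus anti-PD-1, with 79, 36 and 27 genes, and with cryo-thermal therapy alone, with 73, 77 and 33. Radiofrequency alone had 42, 59 and 12, and cryoablation alone 50, 26 and 74. Every group thus held a tumour with most members above their means and a tumour with most below. Over all genes tested the share ran only from 44.3% to 56.8%, and over genes with a mean of at least 20 FPKM from 39.1% to 59.9%. The shifts were small, with the median member moved by between -0.134 and 0.115 on the log2 scale in a tumour. The mean log2 level of the module ran from 5.46 in radiofrequency plus anti-PD-1 replicate 2 to 5.70 in cryo-thermal plus anti-PD-1 replicate 1, a 1.18-fold range. In bulk tumours, fewer cells of a type and less RNA per cell cannot be told apart.

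**Figure D2:**
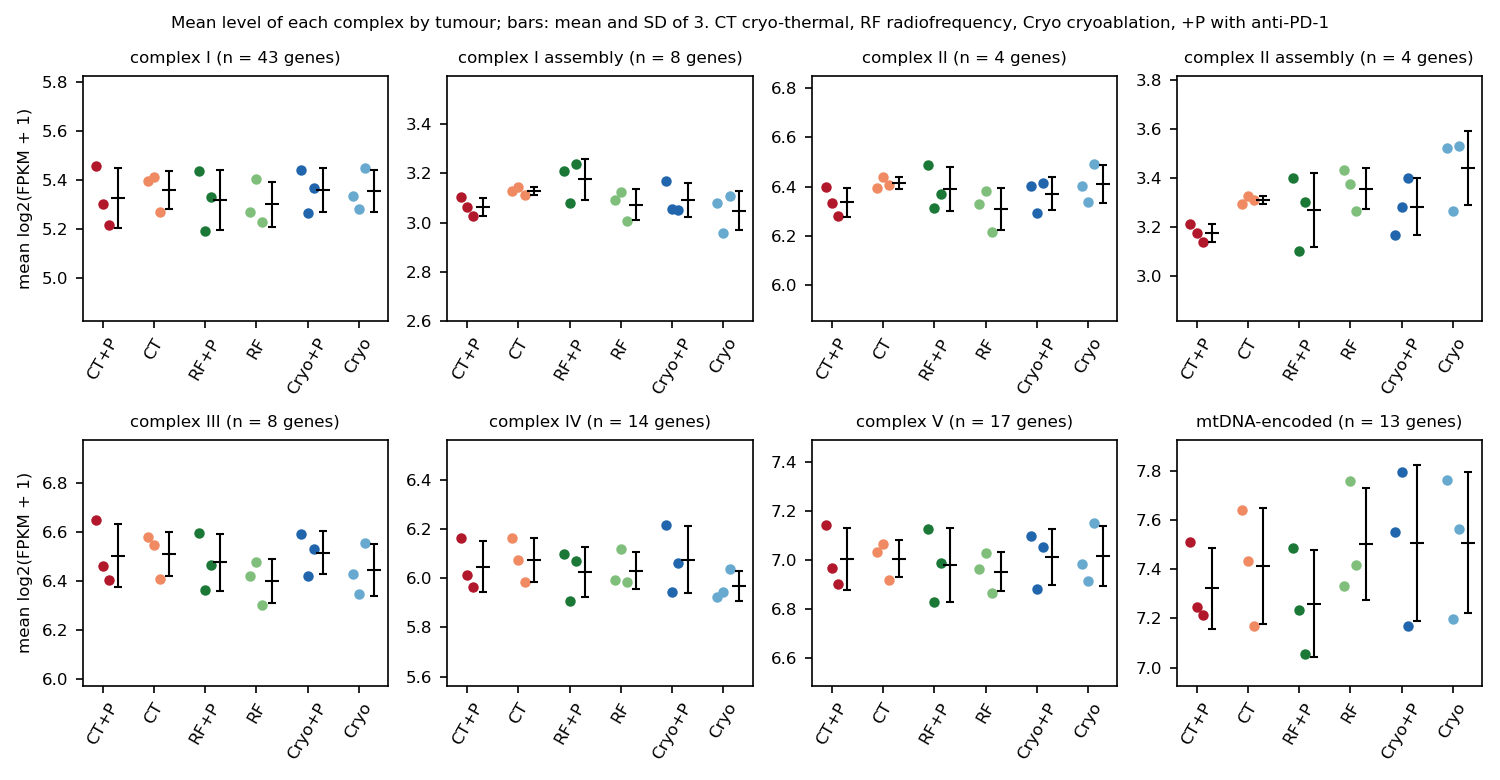
Mean log2(FPKM + 1) of the genes of each complex, of the assembly factors and of 13 mitochondrially encoded subunits (y axis, a span of 1 in each panel) in every tumour (points) by group (x axis), with the group mean and SD of 3 tumours (bars). The tumours of a group overlap those of the other groups in most panels, and the mitochondrially encoded genes spread most, from 7.06 to 7.80.

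Cryo-thermal therapy against cryoablation, both without anti-PD-1, was the comparison in which most genes of the series passed, and 2 of the 98 members did, both subunits of complex IV. This was 2.04% of the members, against 15.0% of all genes tested; both were higher, as were 8.01% of all genes. At an unadjusted p under 0.05 there were 11 members (11.2%), against 31.1% of all genes. The median log2 fold change of the members was 0.04 and that of all genes -0.01; leaving out 1 tumour moved the first between -0.03 (without cryoablation replicate 2) and 0.08 (without cryoablation replicate 3). Values did not overlap between the groups for 16 members (16.3%), 11 higher and 5 lower, against 35.5% of all genes (17.7% higher and 17.8% lower). By complex, the fold change was above 0 for 24 of 43 genes of complex I, 2 of 4 of complex II, 6 of 8 of complex III, 10 of 14 of complex IV and 8 of 17 of complex V, and for 48.4% of all genes.

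Cox8a, the common form of subunit VIII of cytochrome c oxidase, had 248, 213 and 212 FPKM with cryo-thermal therapy, against 174, 181 and 184 with cryoablation. All 3 cryo-thermal tumours were above all 3 cryoablation tumours. The log2 fold change was 0.32 (SE 0.08, limma adjusted p = 0.0188). Cox6a2, the heart and skeletal muscle form of subunit VIa, had 3.65, 3.70 and 2.79 FPKM with cryo-thermal therapy, against 0.871, 2.50 and 0.761 with cryoablation. Again the groups did not overlap, although cryoablation replicate 2 came close to the lowest cryo-thermal tumour. The log2 fold change was 0.95 (SE 0.23, limma adjusted p = 0.0167). Cox6a2 did not pass without cryo-thermal replicates 1 or 2 or cryoablation replicates 1 or 3, one at a time (adjusted p 0.0643 to 0.0821), nor Cox8a without cryo-thermal replicate 1 (0.107) or cryoablation replicate 1 (0.0798). Of 10 skeletal muscle markers 0 passed and all 10 were above 0; the 13 in the list summed to 18.2 to 90.7 FPKM with cryo-thermal therapy and to 21.5 to 28.5 with cryoablation, and with their level as a covariate, an alternative added after the data were seen, both genes still passed. Over all 14 alternatives the adjusted p ran from 0.000133 to 0.0821 for Cox6a2 and from 0.0015 to 0.107 for Cox8a, and the number of members past the test was 7, all higher, without cryo-thermal replicate 3. It was 3 without cryoablation replicate 2, 1 without cryo-thermal replicate 2 or cryoablation replicate 3, and 0 without replicate 1 of either group. The shares of all genes that passed in these fits are not given here.

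Other genes came near the threshold in the same comparison. Atp5d, the delta subunit in the central stalk of ATP synthase, had 55.4, 61.5 and 54.5 FPKM with cryo-thermal therapy, against 48.0, 51.7 and 47.2 with cryoablation, a log2 difference of 0.22 (limma adjusted p = 0.0604). Ndufa4, which was first counted with complex I and is now placed in cytochrome c oxidase, had 96.0, 104 and 101 FPKM with cryo-thermal therapy, against 152, 124 and 190 with cryoablation. All 3 cryo-thermal tumours were below all 3 cryoablation tumours, but cryoablation varied widely, and the log2 difference of -0.60 did not pass (limma adjusted p = 0.0665). With anti-PD-1 the same gene had 128, 87.7 and 70.4 FPKM after cryo-thermal therapy, against 105, 134 and 130 after cryoablation, and these groups overlapped. Cell markers differed between the same tumours. All 7 T cell markers passed as higher, with summed levels of 11.8 to 36.9 FPKM with cryo-thermal therapy and 2.33 to 3.41 with cryoablation, and 2 of 7 macrophage markers passed as higher, with sums of 1319 to 2265 FPKM with cryo-thermal therapy and 969 to 1486 with cryoablation. Passing as lower were 5 of 5 erythroid markers, with 23.6 to 210 FPKM with cryo-thermal therapy and 558 to 772 with cryoablation, and 3 of 4 neutrophil markers tested, with 5.16 to 39.0 FPKM (5 markers summed) with cryo-thermal therapy and 108 to 266 with cryoablation. The epithelial list, with 1 of 3 tested passing as lower, summed to 2.52 to 2.99 FPKM with cryo-thermal therapy and 3.47 to 4.02 with cryoablation, and 1 of 5 fibroblast markers passed as lower, with sums of 868 to 1665 and 1515 to 1929 FPKM in the same order. The sums overlapped for macrophages and fibroblasts and not for the other 4 lists. None of these lists had a marker at 0 in all 3 tumours of a group, and their part in the values of the module was not tested.

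The other comparisons between ablations called almost no members. Between cryo-thermal therapy and radiofrequency ablation, limma called 0 of 98, and 0.00794% of all genes; 7 members had an unadjusted p under 0.05 (7.14%, against 13.6% of all genes). Members leaned to one side there: 74 of 98 (75.5%) had a log2 fold change above 0, against 49.8% of all genes, with a median of 0.07. The median was -0.03 with the muscle marker level as a covariate, and leaving out 1 tumour moved it between 0.03 (without radiofrequency replicate 3) and 0.12 (without cryo-thermal replicate 3), with 0.11 without radiofrequency replicate 2. Values above 0 were found for 32 of 43 genes of complex I, 4 of 4 of complex II, 7 of 8 of complex III, 11 of 14 of complex IV and 13 of 17 of complex V. The groups did not overlap for 17 members (17.3%), against 15.7% of all genes. Of these members 14 were higher (14.3%, against 8.08% of all genes) and 3 lower (3.06%, against 7.59%). The 2 members with the smallest p above 0 were both subunits of complex V. Atp5d had 55.4, 61.5 and 54.5 FPKM with cryo-thermal therapy, against 48.5, 50.9 and 50.2 with radiofrequency. Atp5g1, one of the genes for the membrane ring subunit c, had 62.2, 63.0 and 54.3 FPKM with cryo-thermal therapy, against 53.6, 52.9 and 44.0 with radiofrequency. Both sets of groups stood apart, and neither gene passed (limma adjusted p = 0.306 and 0.317). Below 0 were Cox7a2l, a factor that joins complexes III and IV into supercomplexes, with 111, 106 and 120 FPKM with cryo-thermal therapy, against 124, 121 and 137 with radiofrequency, and Cox7a1, the muscle form of subunit VIIa. Cox7a1 had 1.44, 1.41 and 2.45 FPKM with cryo-thermal therapy, against 1.97, 3.68 and 2.62 with radiofrequency; these overlapped (log2 -0.44, limma adjusted p = 0.38), while those of Cox7a2l did not.

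Between radiofrequency ablation and cryoablation, limma again called 0 members, against 0.00794% of all genes, with 7 at an unadjusted p under 0.05 (7.14%, against 15.1% of all genes). Here 31 of 98 members (31.6%) were above 0, against 47.8% of all genes, and the median was -0.05, or 0.02 with that covariate. Leaving out 1 tumour ended or turned this lean in some cases, with medians of 0.00 without radiofrequency replicate 3 and 0.01 without cryoablation replicate 3, and made it larger in others, with -0.10 without replicate 2 of either group. This comparison shares its radiofrequency tumours with the one before, and of those tumours replicate 3 had 12 members above their own mean. The groups did not overlap for 10 members (10.2%), against 22.8% of all genes. Sdhc, a membrane anchor of complex II, had 85.4, 91.7 and 79.4 FPKM with radiofrequency, against 102, 92.9 and 100 with cryoablation. Atp5a1, the alpha subunit of ATP synthase, had 322, 296 and 289 FPKM with radiofrequency, against 339, 334 and 377 with cryoablation. The tumours of each pair of groups did not overlap, and neither difference passed (limma adjusted p = 0.17 for Sdhc and 0.175 for Atp5a1). Cox6a2 had 2.36, 3.05 and 3.33 FPKM with radiofrequency, against 0.871, 2.50 and 0.761 with cryoablation (log2 0.79, limma adjusted p = 0.159). Without cryoablation replicate 2 it passed with a log2 fold change of 1.10 (limma adjusted p = 0.0494, with 0.0374 to 0.485 over 14 alternatives). Ndufaf4, an assembly factor of complex I, had 5.31, 5.33 and 5.13 FPKM with radiofrequency, against 4.57, 3.91 and 4.51 with cryoablation, and did not pass.

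With anti-PD-1 added to each ablation, limma called 0 members between cryo-thermal therapy and cryoablation, against 4.06% of all genes, and 4 had an unadjusted p under 0.05 (4.08%, against 20.7%). Above 0 were 39 of 98 (39.8%), against 52.4% of all genes, with a median of -0.03 that lay between -0.08 (without cryo-thermal plus anti-PD-1 replicate 1) and 0.02 (without its replicate 3) when 1 tumour was left out. Values of the groups did not overlap for 7 members (7.14%), against 25.9% of all genes. Cox5a, subunit Va of cytochrome c oxidase, had 26.1, 26.8 and 26.9 FPKM after cryo-thermal therapy joined with anti-PD-1, against 24.7, 20.4 and 23.5 with cryoablation plus anti-PD-1. Ndufa8, an accessory subunit of complex I, had 45.5, 49.6 and 45.3 FPKM after cryo-thermal therapy joined with anti-PD-1, against 44.3, 36.2 and 44.2 with cryoablation plus anti-PD-1. Sdhaf3, which protects the iron-sulfur subunit of complex II during assembly, had 2.47, 2.63 and 2.19 FPKM after cryo-thermal therapy joined with anti-PD-1, against 2.91, 4.00 and 2.98 with cryoablation plus anti-PD-1. None of the 3 sets of values overlapped between groups, and none passed (limma adjusted p = 0.339, 0.277 and 0.136). Cox6a2 had 2.48, 2.27 and 2.29 FPKM with cryo-thermal therapy and anti-PD-1, against 3.37, 3.65 and 5.75 FPKM with cryoablation and anti-PD-1, which also stood apart without passing (log2 -0.62, limma adjusted p = 0.144). Without replicate 1 of the cryo-thermal group 2 members passed, both lower, and without replicate 1 of the cryoablation group 1 did. Between radiofrequency and cryoablation, both with anti-PD-1, limma called 0 members and 0 genes in all, with 4 members at an unadjusted p under 0.05 (4.08%, against 5.85% of all genes). One member, Ndufab1-ps, had groups that did not overlap (1.02% of members, against 9.40% of all genes), with 4.05, 2.90 and 3.78 FPKM with radiofrequency plus anti-PD-1, against 4.87, 4.43 and 5.12 with cryoablation plus anti-PD-1. Ndufaf3, another assembly factor of complex I, was above 0 in that comparison with a log2 difference of 0.24 and did not pass (limma adjusted p = 0.84).

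Between cryo-thermal therapy and radiofrequency, both with anti-PD-1, 1 of 98 members passed (1.02%), against 1.31% of all genes, with 0.493% of all genes passing as lower. It was Cox6a2, which fell to 2.48, 2.27 and 2.29 FPKM after cryo-thermal therapy joined with anti-PD-1, against 4.71, 6.64 and 8.10 with radiofrequency plus anti-PD-1. The groups did not overlap, with 2.48 FPKM the highest cryo-thermal value and 4.71 the lowest radiofrequency value. The log2 fold change was -1.14 (SE 0.23, limma adjusted p = 0.0386). Values did not overlap for 16 members (16.3%), against 22.9% of all genes, and 7 members had an unadjusted p under 0.05 (7.14%, against 17.2%). Of 10 skeletal muscle markers tested 0 passed in this comparison, all 10 were below 0, and the 13 markers summed to 17.2 to 48.9 FPKM with cryo-thermal therapy plus anti-PD-1 and to 50.04 to 114 with radiofrequency plus anti-PD-1. T cell markers, 2 of 7 of which passed as higher, summed to 35.1 to 38.2 FPKM with cryo-thermal therapy plus anti-PD-1 and 8.34 to 16.3 with radiofrequency plus anti-PD-1, and macrophage markers, with 0 of 7 passing by limma, to 1405 to 2077 and 1288 to 1382 FPKM in the same order. The sums of these 3 lists did not overlap between the groups, those of the other 8 did, and the part of the immune lists in the value of Cox6a2 was not tested. With the muscle marker level of each tumour as a covariate, the log2 fold change of Cox6a2 was -1.02 (limma adjusted p = 0.172). It did not pass in 9 of 14 alternatives, which gave adjusted p from 0.00167 to 0.172, among them leaving out any cryo-thermal plus anti-PD-1 tumour or radiofrequency plus anti-PD-1 replicates 2 or 3 (0.0554 to 0.169), and without radiofrequency plus anti-PD-1 replicate 1 the count was 2.

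**Figure D3:**
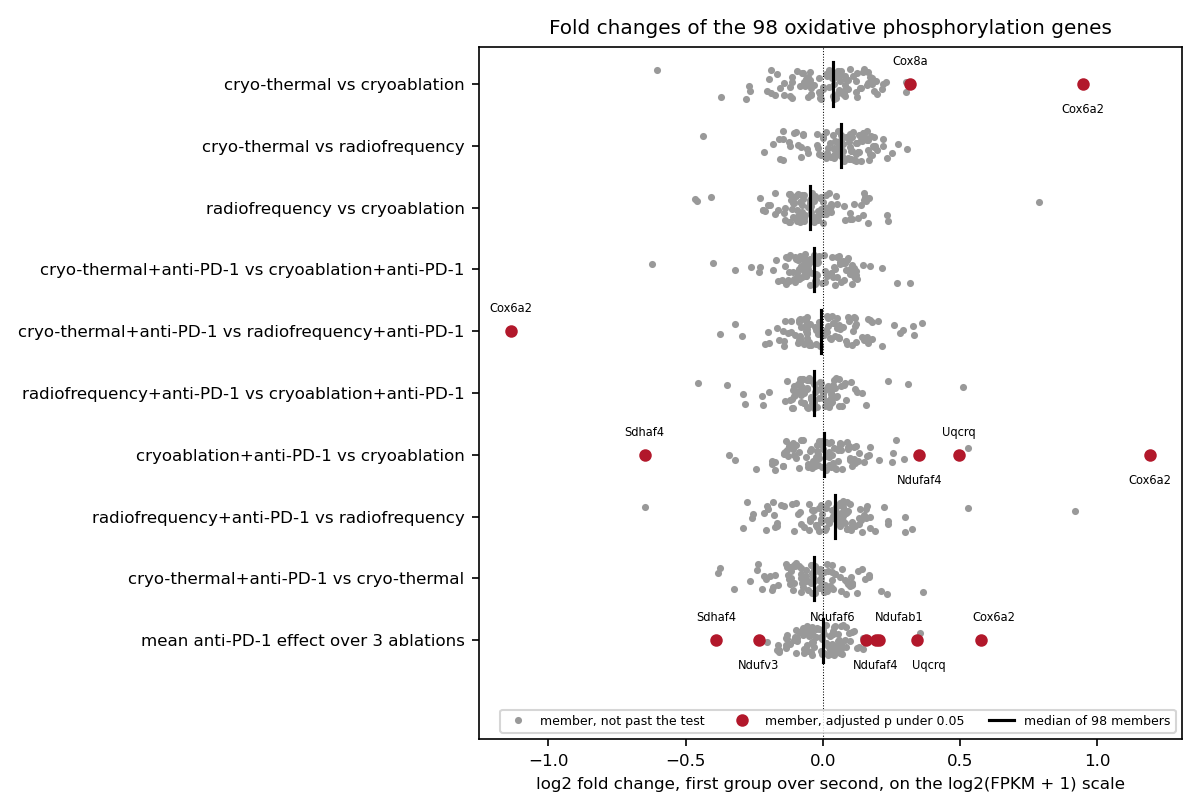
Log2 fold change of each of the 98 genes (x axis, on the log2(FPKM + 1) scale) in 10 comparisons (rows), with genes past the test in red and named, and the median of the members as a black bar. Medians lie between -0.05 and 0.07, and Cox6a2 lies farthest out in several rows, at -1.14 and 1.19 at most.

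Anti-PD-1 after cryoablation moved 4 of 98 members past the test (4.08%), against 4.31% of all genes, 3 higher (1.79% of all genes) and 1 lower (2.53%). At an unadjusted p under 0.05 there were 11 members (11.2%), against 24.4% of all genes. No overlap was seen for 8 members (8.16%), against 31.6% of all genes. Uqcrq, the small subunit VII of complex III, had 62.6, 49.1 and 59.6 FPKM with anti-PD-1, against 38.7, 39.0 and 42.6 with cryoablation alone. All 3 anti-PD-1 tumours were higher, and the log2 fold change was 0.49 (SE 0.12, limma adjusted p = 0.0325). Cox6a2 had 3.37, 3.65 and 5.75 FPKM with anti-PD-1, against 0.871, 2.50 and 0.761 with cryoablation alone. The groups did not overlap, and the log2 fold change was 1.19 (SE 0.23, limma adjusted p = 0.0201). Ndufaf4 had 5.35, 6.64 and 5.45 FPKM with anti-PD-1, against 4.57, 3.91 and 4.51 with cryoablation alone. These also stood apart, with a log2 fold change of 0.35 (SE 0.09, limma adjusted p = 0.0368). Sdhaf4, which helps to add the flavin-bearing subunit Sdha to complex II, was the one that fell. It had 10.1, 10.8 and 13.9 FPKM with anti-PD-1, against 21.7, 14.8 and 20.1 with cryoablation alone. The highest anti-PD-1 tumour was just below the lowest one without it, and the log2 fold change was -0.65 (SE 0.16, limma adjusted p = 0.0372).

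These 4 calls rested on few tumours. The keratinocyte and hair follicle markers summed to 114 to 225 FPKM with cryoablation plus anti-PD-1 and to 39.2 to 114 with cryoablation alone, and muscle markers to 65.3 to 82.3 and to 21.5 to 28.5 FPKM; 0 of 10 keratinocyte and hair follicle markers and 0 of 10 muscle markers passed, with all 10 of each list above 0. T cell markers summed to 5.60 to 22.1 FPKM with cryoablation plus anti-PD-1 and 2.33 to 3.41 with cryoablation alone, neutrophil markers to 22.8 to 83.4 and 108 to 266 FPKM, erythroid markers to 53.0 to 104 and 558 to 772, and fibroblast markers to 945 to 1221 and 1515 to 1929. Of these, 3 of 5 erythroid markers and 1 of 5 fibroblast markers passed as lower, and 0 of 7 T cell and 0 of 4 neutrophil markers passed by limma. The epithelial list (4.73 to 5.00 and 3.47 to 4.02 FPKM) and the melanocyte list (0.749 to 0.965 and 0.990 to 1.33 FPKM) also stood apart, as did muscle, while the keratinocyte and hair follicle list did not. No keratinocyte, hair follicle or muscle marker was at 0 in all 3 tumours of a group, and the part of the T cell, neutrophil, erythroid, fibroblast, epithelial and melanocyte lists in the calls was not tested. Only 1 tumour with cryoablation plus anti-PD-1 was left without the 3 tumours highest in keratinocyte and hair follicle markers. That fit could therefore not test the 4 calls. With the muscle level as covariate 0 of the 4 members passed. Their limma adjusted p were 0.136 for Cox6a2, 0.212 for Uqcrq, 0.217 for Ndufaf4 and 0.136 for Sdhaf4. The muscle sums did not overlap between the groups, so treatment and muscle level are hard to tell apart in that fit. Over all 14 alternatives the adjusted p ran from 0.0015 to 0.265 for Cox6a2, from 0.00361 to 0.32 for Uqcrq, from 0.0154 to 0.408 for Ndufaf4 and from 0.00908 to 0.53 for Sdhaf4. Leaving out single tumours ended the call of Ndufaf4 in 6 of 6 cases, of Uqcrq in 5 (all but cryoablation plus anti-PD-1 replicate 2), and of Cox6a2 and Sdhaf4 in 4 each. For Cox6a2 these were replicates 1 and 3 of either group, and for Sdhaf4 replicates 1 and 2 with anti-PD-1 and replicates 1 and 3 without it, with adjusted p from 0.053 to 0.186 over the 4 genes. The count was 0 without replicate 1 of either group or cryoablation replicate 3, 1 without replicate 3 with anti-PD-1, and 2 without cryoablation replicate 2.

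Anti-PD-1 after the other ablations left the members without a call. After radiofrequency limma called 0 members, against 0.0477% of all genes, with 11 at an unadjusted p under 0.05 (11.2%, against 11.6% of all genes). Tumour values did not overlap for 13 members (13.3%), against 14.8% of all genes. Cox6a2 had 4.71, 6.64 and 8.10 FPKM with anti-PD-1, against 2.36, 3.05 and 3.33 with radiofrequency alone, and did not pass (log2 0.92, limma adjusted p = 0.176). Muscle markers summed to 50.04 to 114 FPKM with anti-PD-1 and to 4.25 to 34.2 with radiofrequency alone, and neutrophil markers to 15.8 to 50.6 and to 97.7 to 312 FPKM in the same order. Cox7a1 was on the other side in the same tumours, with 1.49, 1.01 and 1.61 FPKM with anti-PD-1, against 1.97, 3.68 and 2.62 with radiofrequency alone (log2 -0.65, limma adjusted p = 0.263). Ndufa10, an accessory subunit of complex I, had 71.3, 68.8 and 64.7 FPKM with anti-PD-1, against 60.9, 62.0 and 60.6 with radiofrequency alone (limma adjusted p = 0.277). Neither gene's groups overlapped.

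After cryo-thermal therapy limma called 0 members for anti-PD-1, against 0.373% of all genes, with 4 at an unadjusted p under 0.05 (4.08%, against 13.0% of all genes). The groups did not overlap for 16 members (16.3%), against 19.8% of all genes. Cox4i1 had 365, 354 and 373 FPKM with anti-PD-1, against 339, 330 and 320 with cryo-thermal therapy alone (log2 0.14, limma adjusted p = 0.394). Cox7a2l had 96.7, 98.9 and 94.4 FPKM with anti-PD-1, against 111, 106 and 120 with cryo-thermal therapy alone (log2 -0.21, limma adjusted p = 0.322). The values of neither gene overlapped between the groups, and neither gene passed. Cox6a2 was lower in all 3 anti-PD-1 tumours, with 2.48, 2.27 and 2.29 FPKM, against 3.65, 3.70 and 2.79 with cryo-thermal therapy alone, and did not pass (log2 -0.38, limma adjusted p = 0.5). With array weights, which let limma give tumours unequal weight, 36 members passed here, 33 of them lower. That fit gave a convergence warning. The share of all genes that passed in it is not given here, so this count cannot be set against a background.

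Averaged over the 3 ablations, anti-PD-1 moved 7 of 98 members past the test (7.14%), against 10.0% of all genes. At an unadjusted p under 0.05 there were 17 (17.3%), against 28.5% of all genes. Of the 7, 5 were higher (5.28% of all genes) and 2 lower (4.75%), and the median of the 98 was 0.00 (-0.03 to 0.02 with 1 tumour left out). Complex III gave Uqcrq, with group means of 58.6 ± 2.93 with anti-PD-1 and 49.99 ± 6.55 without it after cryo-thermal therapy, 55.7 ± 4.28 and 45.4 ± 6.63 after radiofrequency, and 57.1 ± 7.09 and 40.1 ± 2.16 after cryoablation (FPKM, SD, n = 3 each). Each ablation moved in the same direction, and the mean log2 effect was 0.34 (SE 0.07, limma adjusted p = 0.00917). Complex I gave Ndufab1, the mitochondrial acyl carrier protein that also sits in complex I, and Ndufv3, a small subunit near the NADH site. Ndufab1 had 22.1, 22.7 and 22.5 FPKM with anti-PD-1, against 20.4, 23.5 and 18.7 without it, after cryo-thermal therapy. It had 21.3, 21.1 and 23.4, against 19.2, 19.8 and 16.5, after radiofrequency, and 24.0, 21.0 and 20.9, against 17.4, 18.7 and 18.1, after cryoablation. Only the cryo-thermal groups overlapped, and the mean log2 effect was 0.20 (SE 0.05, limma adjusted p = 0.0187).

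Ndufv3 fell. It had 29.3, 29.2 and 27.6 FPKM with anti-PD-1, against 32.7, 33.2 and 36.1 without it, after cryo-thermal therapy. It had 31.2, 26.8 and 31.9, against 33.1, 37.6 and 38.7, after radiofrequency, and 31.5, 26.6 and 27.9, against 31.4, 33.4 and 33.4, after cryoablation. The groups overlapped by a single tumour after cryoablation and not at all after the other ablations, and the mean log2 effect was -0.23 (SE 0.05, limma adjusted p = 0.00919). Sdhaf4 also fell, with group means of 10.7 ± 1.27 and 14.2 ± 1.48 after cryo-thermal therapy, 12.6 ± 2.85 and 13.9 ± 1.38 after radiofrequency, and 11.6 ± 2.01 and 18.9 ± 3.59 after cryoablation, each with and without anti-PD-1 (FPKM, SD, n = 3 each). The mean log2 effect was -0.39 (SE 0.09, limma adjusted p = 0.0193). Sdha itself, the subunit it serves, averaged 58.0, 60.3 and 60.4 FPKM with anti-PD-1 and 61.3, 58.1 and 64.2 without it, in the same order of ablations, and did not pass. The complex I assembly factors Ndufaf4 (log2 0.19, limma adjusted p = 0.0264) and Ndufaf6 (log2 0.16, limma adjusted p = 0.0301) were higher, the second at levels of 1.11 to 1.51 FPKM with anti-PD-1 and 0.969 to 1.21 without it. Cox6a2 had a mean log2 effect of 0.58 (SE 0.14, limma adjusted p = 0.0179), made of effects of -0.38, 0.92 and 1.19 after cryo-thermal therapy, radiofrequency and cryoablation. Cox7a2l did not pass (log2 -0.17, limma adjusted p = 0.0515).

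**Figure D4:**
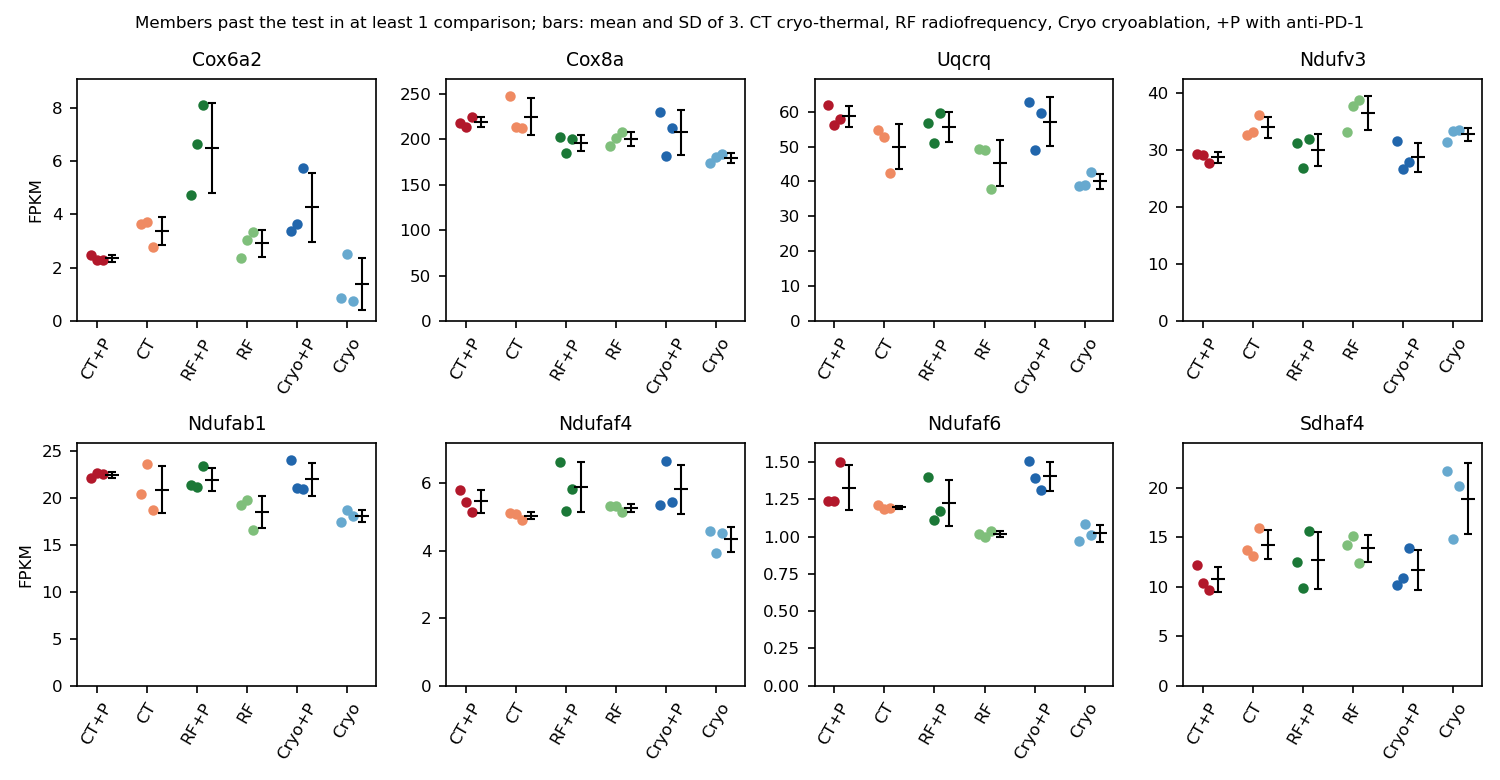
FPKM (y axis, from 0) of the 8 genes that passed in at least 1 comparison, in every tumour (points) by group (x axis), with group mean and SD of 3 (bars). Uqcrq is higher and Ndufv3 lower in each group with anti-PD-1 than in its partner without it, and Cox6a2 is highest with radiofrequency plus anti-PD-1, at 4.71 to 8.10 FPKM.

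Uqcrq, Ndufv3, Cox6a2, Ndufab1 and Sdhaf4 passed in the averaged comparison whichever of the 18 tumours was left out, Ndufaf4 failed without 3 of them (cryo-thermal plus anti-PD-1 replicate 2, cryo-thermal replicate 3 or radiofrequency replicate 3) and Ndufaf6 without 6 (cryo-thermal plus anti-PD-1 replicate 3, cryo-thermal replicate 3, radiofrequency plus anti-PD-1 replicate 1, radiofrequency replicate 3, or replicate 1 of either cryoablation group), with adjusted p from 0.0505 to 0.0653. Keratinocyte and hair follicle markers were above 0 in 10 of 10 in the same comparison, with 0 past limma's test. T cell markers were above 0 in 7 of 7, with 2 passing as higher, and summed to 35.1 to 38.2 FPKM with anti-PD-1 and 11.8 to 36.9 without it after cryo-thermal therapy, 8.34 to 16.3 and 4.94 to 12.1 after radiofrequency, and 5.60 to 22.1 and 2.33 to 3.41 after cryoablation. The T cell sums did not overlap after cryoablation and overlapped after the other ablations. Of 5 fibroblast markers 2 passed as lower, with sums of 654 to 1228 and 868 to 1665, 977 to 1617 and 1250 to 2010, and 945 to 1221 and 1515 to 1929 FPKM in the same order. Of 3 epithelial markers tested 1 passed as higher, while 4 of 4 neutrophil and 5 of 5 erythroid markers were below 0 with 0 past limma's test. Neutrophil sums were lower with anti-PD-1, without overlap, after radiofrequency and cryoablation, but after cryo-thermal therapy they were 25.1 to 382 with anti-PD-1 and 5.16 to 39.0 FPKM without it. The part of the T cell, fibroblast, epithelial, neutrophil and erythroid lists in the 7 calls was not tested. Muscle markers moved with it, with 6 of 10 passing as higher and a median of 0.74, and with their level as covariate 0 of the 7 members passed, with adjusted p of 0.226 for Uqcrq, 0.101 for Ndufv3, 0.25 for Cox6a2, 0.394 for Ndufab1, 0.133 for Sdhaf4, 0.36 for Ndufaf4 and 0.244 for Ndufaf6. In that fit 0 of all genes passed either. Some of the 7 calls were lost without the 3 tumours highest in keratinocyte and hair follicle markers. That fit kept only 1 tumour with cryoablation plus anti-PD-1. Without cryoablation plus anti-PD-1 replicate 2 alone 11 members passed, and the share of all genes in that fit is not given here. Over all 25 alternatives the adjusted p ran from 0.0021 to 0.226 for Uqcrq, from 0.0021 to 0.101 for Ndufv3, from 0.00205 to 0.25 for Cox6a2, from 0.00977 to 0.394 for Ndufab1, from 0.00337 to 0.133 for Sdhaf4, from 0.0101 to 0.36 for Ndufaf4 and from 0.0172 to 0.244 for Ndufaf6.

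Whether anti-PD-1 acted differently after different ablations was tested by interaction. Limma called 0 members for cryo-thermal therapy minus cryoablation, against 0.167% of all genes, with 1 at an unadjusted p under 0.05 (1.02%, against 13.4%). It called 0 members and 0 genes for cryo-thermal therapy minus radiofrequency, with 7 members at an unadjusted p under 0.05 (7.14%, against 7.23%). The member with the smallest p in both was Cox6a2, with differences of -1.57 (SE 0.33, limma adjusted p = 0.0723) and -1.30 (SE 0.33, limma adjusted p = 0.323). In the first, Cox6a2 passed without cryo-thermal replicate 3 (adjusted p = 0.0353) or cryoablation replicate 2 (0.00843) and with array weights, and over 19 alternatives the adjusted p ran from 0.000288 to 0.299. The other members named by p in these tests were Ndufaf4, Ndufaf3, Atp5a1, Cox7a1, Sdhc and Ndufab1-ps, and none passed.

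The tissue-restricted isoforms were set beside the common isoform of the same subunit. Cox6a2 averaged 2.35 ± 0.119, 3.38 ± 0.516, 6.49 ± 1.70, 2.92 ± 0.4998, 4.26 ± 1.30 and 1.38 ± 0.971 FPKM (SD, n = 3 each) with cryo-thermal therapy plus anti-PD-1, cryo-thermal therapy, radiofrequency plus anti-PD-1, radiofrequency, cryoablation plus anti-PD-1 and cryoablation. Cox6a1, the common form, averaged 240, 223, 217, 214, 223 and 214 FPKM in the same order and passed in no comparison. The muscle form thus stood far below the common one everywhere. Cox8b, the muscle form of subunit VIII, lay under the limit of 0.5 FPKM and was listed at 0 in cryo-thermal plus anti-PD-1 replicate 3 and radiofrequency replicates 1 and 3, with its highest value, 1.09 FPKM, in radiofrequency plus anti-PD-1 replicate 3, the tumour that was also highest for Cox6a2. Cox7a1 averaged between 1.37 FPKM with radiofrequency plus anti-PD-1 and 2.76 with radiofrequency, where its common partner Cox7a2 averaged 88.0 and 97.9. Cox7a1 did not follow Cox6a2 in the order of the groups. Muscle markers were present at low levels in all groups, and 0 of the 13 was at 0 in all 3 tumours of a group.

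**Figure D5:**
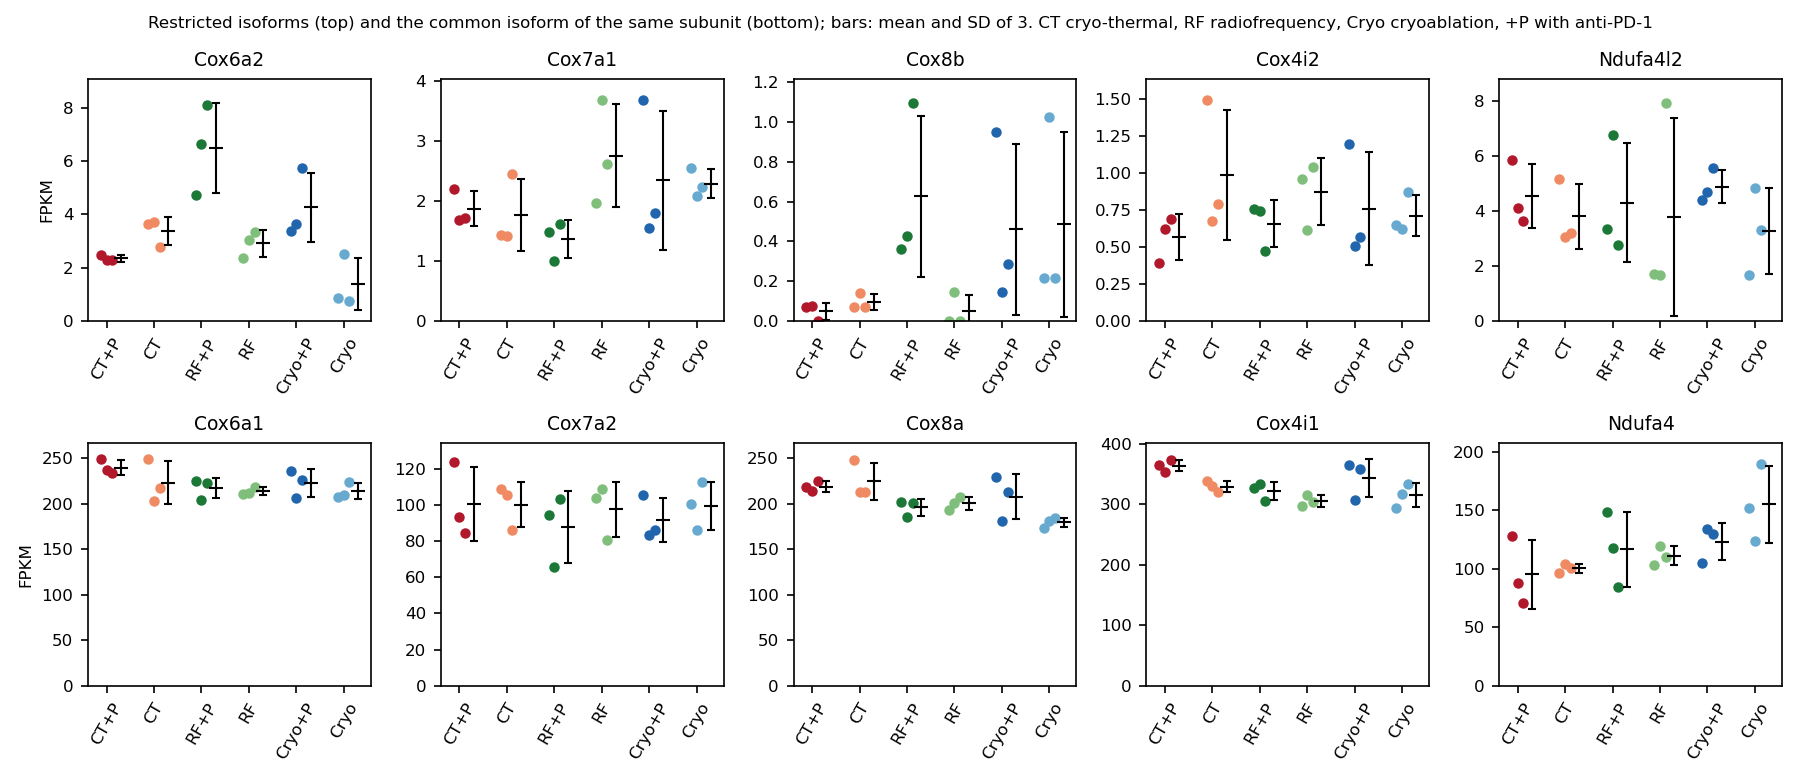
FPKM (y axes, from 0 and different in each panel) of 5 restricted isoforms (top) and the common isoform of the same subunit (bottom) in every tumour by group, with group mean and SD of 3 (bars). The top genes lie under 10 FPKM and the bottom ones at 65.7 to 373 FPKM.

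Cox4i2, the form of subunit IV known from lung and from responses to low oxygen, had 0.393 to 1.49 FPKM in the 18 tumours, where Cox4i1 had 295 to 373. Ndufa4l2, a paralogue of Ndufa4 induced by hypoxia, varied within groups, with 1.71, 1.68 and 7.92 FPKM in the radiofrequency tumours and 1.68, 4.84 and 3.30 in the cryoablation tumours. Its group means lay between 3.27 and 4.88 FPKM, and it passed in no comparison. Cox6b2, a testis form, averaged 0.116 to 0.334 FPKM per group, and its common partner Cox6b1 averaged 225 to 242.

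Genes that work with the module were described from lists. The 13 mitochondrially encoded subunits, made from mitochondrial DNA and joined to the nuclear ones in complexes I, III, IV and V, took between 3.52% and 5.08% of all FPKM in a tumour, and 0 passed in any comparison. For the mean effect of anti-PD-1, 12 of the 13 were below 0, with a median of -0.14, while 49.5% of all genes were above 0. Their share of all FPKM overlapped between tumours with and without anti-PD-1 after each ablation. In cryo-thermal therapy against cryoablation, 6 of 78 mitochondrial ribosomal proteins passed (7.69%), all higher, against 8.01% of all genes passing as higher, so this list lay at the background, with Mrps34 at 0.41 (limma adjusted p = 0.00631) and Mrps18b at 0.30 (limma adjusted p = 0.00897) on the log2 scale. Of 32 further assembly factors 2 passed (6.25%, also against 8.01%), both higher: Coa3, for complex IV, and Bcs1l, which inserts the Rieske protein into complex III. Of 10 regulators of mitochondrial biogenesis tested 1 passed (10.0%, against 15.0% of all genes in either direction), Esrra, the nuclear receptor ERR alpha, with 0.30 (limma adjusted p = 0.0291), and it passed again with anti-PD-1 added to both ablations, at 0.36 (limma adjusted p = 0.0318). In that second comparison the assembly factors Cox20 and Uqcc3 fell, 2 of 32 (6.25%). Of all genes, 0.818% passed as lower there and 4.06% in either direction. None of 16 genes of the TCA cycle and pyruvate dehydrogenase passed between cryo-thermal therapy and cryoablation (0 by limma, median 0.01), and of 15 glycolysis genes 1 did, Pfkp, a phosphofructokinase. Of all genes, 15.0% passed there in either direction.

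For the mean effect of anti-PD-1, 3 of 16 genes of the TCA cycle and pyruvate dehydrogenase passed (18.8%), all higher, against 5.28% of all genes passing as higher: Cs, citrate synthase, at 0.19, Mdh2, malate dehydrogenase, at 0.20, and Dlat, the acetyltransferase of pyruvate dehydrogenase, at 0.14. Cycs, cytochrome c, rose by 0.30 (limma adjusted p = 0.0492), and Slc25a5, an ADP and ATP exchanger, by 0.25 (limma adjusted p = 0.0484), 2 of 8 carriers tested (25.0%). Pprc1, a coactivator of the PGC-1 family, rose by 0.24 (limma adjusted p = 0.00862). It was the only one to pass of the 10 regulators of mitochondrial biogenesis tested, while 10.0% of all genes passed in either direction. Mitochondrial ribosomal proteins gave 6 of 78 (7.69%), all higher, against the same 5.28% higher and 10.0% in either direction, led again by Mrps18b at 0.25 (limma adjusted p = 0.00376) and Mrps34 at 0.24 (limma adjusted p = 0.00811). Of the 32 further assembly factors only Cox18, higher, and Cox20, lower, passed, also against 10.0% of all genes in either direction. Cytosolic ribosomal proteins gave 1 of 83, Rps2, and glycolysis genes 0 of 15 by limma. In the fit with the muscle level as covariate 0 genes passed.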

How the data were processed

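RNA was extracted with TRIzol and silica columns and sequenced from libraries of the VAHTS Universal V6 kit, per the labels' protocols. The authors deposited 1 table of FPKM values, with 1 column for each of 18 tumours and 0 columns of other samples. HTSeq 0.11.2 is named per the submitters' processing notes; for the aligner, genome build, annotation and strand the answer is not given in the sources used here. Fragment counts were not used. Of 28106 low values of 2878 genes, 99.7% were whole fragments within 0.05. The step of each gene was set from its own lowest values, so part of this share was fixed in advance.

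The tests ran on log2(FPKM + 1), which understates changes of low genes, for 12587 genes with a mean of at least 0.5 FPKM. Limma 3.58.1 in R 4.3.3 fitted 1 mean per group over 18 tumours, with 12 residual degrees of freedom, moderated variances following the mean level, 2-sided tests and adjustment by Benjamini and Hochberg over all genes. The 12 comparisons were 9 between groups, 2 interactions and the anti-PD-1 effect averaged over ablations; those with a shared group are not independent. The procedure was tested on simulated data in which each gene varied on its own. Shifts shared by many genes of a tumour were not covered by it. Named genes were the 3 smallest adjusted p in each direction among members past the test, or the 2 smallest p in each direction where none passed, plus isoforms, catalytic subunits and the most abundant member of each complex; Ndufaf4 and Ndufaf6 in the mean effect, and Atp5d and Ndufa4 in cryo-thermal therapy against cryoablation, were added after their values were seen. Members, lists and tests were chosen with earlier results of these data known. Mitochondrially encoded genes were matched by the symbols of the table, such as ND1. Alternatives were a pseudocount of 0.1, no filter, median-ratio scaling, array weights, the replicate numbers as a block, the fit without the 3 tumours highest in keratinocyte and hair follicle markers, the fit with only the groups compared, leaving out each tumour, and a muscle covariate. Tables and figures were made with Python 3.11.15, pandas 2.3.3 and matplotlib 3.10.9.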

Additional observations from a re-analysis of the deposited data

How the results depend on the processing

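Of 761 values recomputed for 46 pairs of a named gene and a comparison, 0 changed direction, 675 kept direction and side of the threshold, 72 no longer passed and 14 passed only in the alternative. Counts of members past the test moved most with limma's array weights, a fit that gave a convergence warning: 17 for cryo-thermal therapy against cryoablation, 6 against radiofrequency, 2 for radiofrequency against cryoablation, 19 and 8 for cryo-thermal therapy against cryoablation and against radiofrequency, all with anti-PD-1, 10 for anti-PD-1 after cryoablation, 36 after cryo-thermal therapy, 18 for its mean effect, and 8 and 1 for the interactions with cryoablation and with radiofrequency. Without the 3 tumours highest in keratinocyte and hair follicle markers the counts were 4 for cryo-thermal therapy against cryoablation and 0 for cryo-thermal therapy against radiofrequency (both with anti-PD-1). That fit left only 1 tumour with cryoablation plus anti-PD-1, so its counts for the effects of anti-PD-1 are not given. The muscle covariate, chosen after seeing the data, gave 0 for cryo-thermal therapy against radiofrequency (both with anti-PD-1). It also gave 0 for anti-PD-1 after cryoablation and 0 for its mean effect. A pseudocount of 0.1 gave 0 for cryo-thermal therapy against radiofrequency with anti-PD-1, no filter gave 0 there and 0 for anti-PD-1 after cryoablation, and the fit of only the groups compared gave 1 for anti-PD-1 after cryoablation. The cause was not tested. Apart from the muscle covariate in the mean effect, the shares of all genes that passed in the alternatives are not given here. The counts of members in them therefore cannot be set against a background.

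Leaving out 1 tumour gave 0 to 7 members for cryo-thermal therapy against cryoablation, 0 to 2 for it against either other ablation with anti-PD-1, 0 to 1 for radiofrequency against cryoablation, 0 to 3 for anti-PD-1 after cryoablation, 5 to 11 for its mean effect, 0 to 1 for the interaction with cryoablation, and 0 to 0 for the others. The medians gave no sign that the replicate numbers paired the tumours. Deviations of tumours with the same number had median r of -0.06, 0.03 and 0.01 for numbers 1, 2 and 3, with a lowest of -0.467 and a highest of 0.591. Tumours of different numbers and groups had a median of -0.007, from -0.579 to 0.495. Whether some tumours shared a batch was not tested. With the replicate block the mean effect of anti-PD-1 gave 8 members, and the other counts were as in the fit without the block. Depth was not given as counts, so no counting interval was computed, and values of members near 1 FPKM are the least precise.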

Other observations

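AA467197, which the RefSeq gene table also lists as Nmes1 and which is known as a paralogue of Ndufa4, was looked up after the values of Ndufa4 were seen. It had 239, 255 and 261 FPKM with cryo-thermal therapy and anti-PD-1, against 134, 76.8 and 69.0 with cryoablation and anti-PD-1, and it had 179, 167 and 94.2 with cryo-thermal therapy, against 54.3, 65.1 and 71.7 with cryoablation. The radiofrequency tumours had 115, 74.0 and 152 FPKM with anti-PD-1 and 109, 109 and 52.2 without it. AA467197 rose by 1.49 with anti-PD-1 (SE 0.33, limma adjusted p = 0.0264) and by 1.15 without it (SE 0.33, limma adjusted p = 0.0301) on the log2 scale for cryo-thermal therapy against cryoablation. All 3 cryo-thermal tumours were above all 3 cryoablation tumours in both settings, while Ndufa4 had values in the opposite order without anti-PD-1. The mean effect of anti-PD-1 on AA467197 was 0.56 and did not pass (limma adjusted p = 0.0718).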
